A study of Ovis aries with 36 samples.

Results

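The pineal gland was compared with the hypothalamus of the same rams, as 12 pairs of messenger RNA libraries from 12 adult rams of the breed Rasa Aragonesa. The 24 libraries are all those of the 2 tissues among the 36 of the series, and a pineal library was paired with the hypothalamus library that carries the same animal number in its label. Rams 1 to 6 were sexually active and rams 7 to 12 were not active (called inactive here), so each tissue held 6 active and 6 inactive rams. No treatment, time of day or season is given in the labels used here. Each library is one tissue piece of one ram and mixes all cell types of that piece. A difference in level can therefore be a change in the share of a cell type or in the RNA per cell, and the counts cannot tell these apart.

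The pineal gland consists mainly of pinealocytes, endocrine cells related to photoreceptors that make melatonin from serotonin under the control of sympathetic nerves. The hypothalamus is a brain region of many neuron types and glia, and its neurons release peptides that control the pituitary, feeding and reproduction. In seasonal breeders such as sheep, the night-time melatonin signal links day length to this reproductive axis. The counts carry Ensembl gene IDs without names, and the table used here to look up symbols, from RefSeq for the assembly ARS-UI_Ramb_v3.0, held 0 of the 26478 IDs. For this reason neither tissue could be checked against its known marker genes, no gene below is given a function, and no sequence is shown.

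Depth ran from 25.2 to 73.0 over pineal libraries and from 19.3 to 44.3 over hypothalamus libraries, in units of 1000000 counts. Levels are given as counts per 1000000 counts of the library after scaling (CPM). Among all IDs, 4168 had no count in the 24 libraries and 16540 had enough counts to be tested.

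The pineal gland and the hypothalamus differed in most of the genes tested, many by less than 2-fold. The test called 10827 of 16540 genes (65.5%). Of the tested genes, 5358 (32.4%) were higher and 5469 (33.1%) were lower in the pineal gland, by edgeR's quasi-likelihood test with the ram as a block and a Benjamini-Hochberg adjusted p below 0.05. Genes called higher in the pineal gland held 50.1% of the pineal counts and 22.4% of the hypothalamus counts. Genes called lower held 24.2% of the pineal counts and 52.0% of the hypothalamus counts. These 4 shares describe the called genes and are no separate test.

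Called genes at least 2-fold, 8-fold or 32-fold apart were more often lower in the pineal gland. Those at least 256-fold apart were more often higher. At a fitted difference of at least 2-fold, 2142 genes were higher in the pineal gland and 2778 were lower. At 8-fold the numbers were 472 higher and 736 lower, and at 32-fold 184 and 226. At 256-fold the order turned, with 64 genes higher in the pineal gland and 24 lower, and at 1024-fold with 30 and 3. The pineal side of these counts hardly moved without ram 10, at 183 genes for 32-fold and 63 for 256-fold, while the hypothalamus side rose to 272 and 30. When the test itself required a difference above 2-fold, 1512 genes (9.14%) were called higher and 2059 (12.4%) lower, 3571 in all (21.6%).

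How often genes differed was also read by their level. Genes were classed by the geometric mean of CPM over all 24 libraries, a choice made after the data were seen. Of the 40 genes at 1000 CPM or more, 85.0% were called and 40.0% had a fitted difference of at least 2-fold, with a median absolute log2 difference of 0.92. The 2045 genes from 100 to 1000 CPM had 70.6% called, 23.2% at least 2-fold apart and a median of 0.44. The 8418 genes from 10 to 100 CPM were much like them, with 66.2% called, 22.0% at least 2-fold apart and a median of 0.43. From 1 to 10 CPM, 65.7% of 3819 genes were called, 40.8% were at least 2-fold apart and the median was 0.76. The 2218 genes under 1 CPM had 57.0% called, 49.3% at least 2-fold apart and the largest median, 0.97. These values describe the classes, and no difference between them was tested. The classing itself bears on them: by the mean level in the tissue where a gene is higher, a rule by which a large difference lifts a gene into the top class, that class held 113 genes with a median of 1.45. Low counts also add error to the fitted difference of the lower classes.

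**Figure D1:**
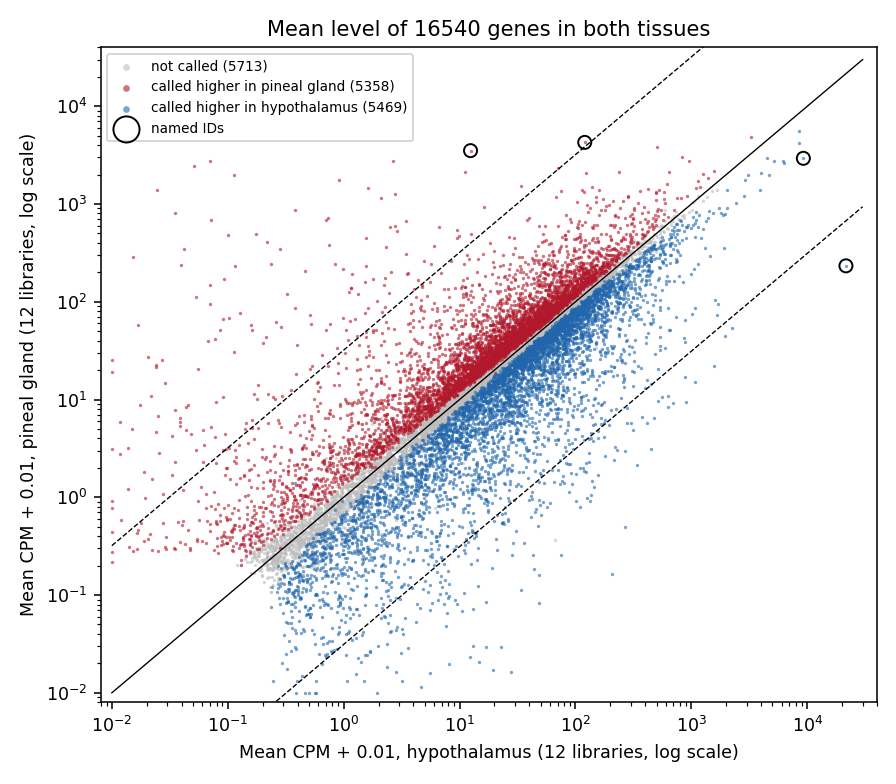
Mean level of each tested gene in the hypothalamus (x axis) and the pineal gland (y axis), in CPM with 0.01 added, on log axes. The solid line marks equal levels and the dashed lines a 32-fold difference; the points beyond the upper dashed line spread further from the diagonal than those beyond the lower one, and the 4 circled points are the IDs described next.

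For the 4 IDs described by their values, the choice fell on the called genes with the largest difference in mean CPM and with the same direction in all 12 rams. ENSOARG00020005674 had pineal levels of 5460, 3849, 5202, 4167, 2879 and 6350 CPM in active rams 1 to 6, and 2480, 4183, 4741, 3611, 4154 and 4118 CPM in inactive rams 7 to 12. Its hypothalamus levels were 91.2, 348, 140, 86.7, 120 and 111 CPM in rams 1 to 6, and 88.7, 94.7, 82.1, 78.4, 90.7 and 110 CPM in rams 7 to 12. All pineal libraries stood above all hypothalamus libraries, and the hypothalamus of ram 2 stood apart from the other 11. The log2 difference was 5.26 (SE 0.220, 95% interval 4.79 to 5.73) and ran from 3.47 in ram 2 to 5.90 in ram 1 (n = 12 pairs, adjusted p 5.62e-11 by edgeR's quasi-likelihood test). ENSOARG00020026297 was a steeper case at a similar pineal level. Pineal libraries held 2502 to 4741 CPM of it with a median of 3399, and hypothalamus libraries 6.53 to 20.1 CPM with a median of 12.9. Its log2 difference was 8.17 (SE 0.191, 95% interval 7.76 to 8.58), within 7.46 to 9.20 in every ram (adjusted p 1.42e-13 by edgeR's quasi-likelihood test).

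ENSOARG00020015153 was the most abundant of the 4 IDs and belonged to the hypothalamus. It took 2.10% of all counts of a hypothalamus library on average and 5.04% in the highest one. Its hypothalamus levels were 18160, 16408, 14851, 15009, 14019 and 13471 CPM in active rams 1 to 6, and 54387, 7161, 25260, 41563, 22388 and 15848 CPM in inactive rams 7 to 12. The 6 active rams lay close together (15320 ± 1713 CPM, SD, n = 6), whereas 4 inactive rams lay above their range, ram 8 below it and ram 12 within it (27768 ± 17326 CPM, SD, n = 6). In the pineal gland it ran from 48.4 to 1370 CPM with a median of 115, and ram 10 alone was above 268 CPM. The log2 difference was -7.09 (SE 0.402, 95% interval -7.95 to -6.23, adjusted p 1.40e-09 by edgeR's quasi-likelihood test), and -7.27 without ram 10. ENSOARG00020018871 overlapped between the tissues. Its hypothalamus levels ran from 3495 to 15227 CPM and its pineal levels from 1280 to 5041 CPM. The difference per ram ran from -2.69 to -0.71 on the log2 scale, where the shared direction follows from the choice of the ID. The fitted log2 difference was -1.66 (SE 0.197, adjusted p 3.19e-06 by edgeR's quasi-likelihood test).

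The pars tuberalis, the pituitary part that reads melatonin, was not part of these pairs, but its 12 libraries give a level for the same 4 IDs when all 36 libraries are scaled together. On that scale ENSOARG00020005674 stood at 27.2 ± 8.87 CPM and ENSOARG00020026297 at 19.1 ± 6.61 CPM in the pars tuberalis (SD, n = 12), against 4441 ± 1126 and 3654 ± 888 CPM in the pineal gland. ENSOARG00020015153 stood at 55.3 ± 18.7 CPM and ENSOARG00020018871 at 1343 ± 1266 CPM in the pars tuberalis, against 22187 ± 13794 and 9505 ± 4015 CPM in the hypothalamus. Each of the 4 IDs thus had a lower mean in the pars tuberalis than in the tissue of its highest level, which was not tested.

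**Figure D2:**
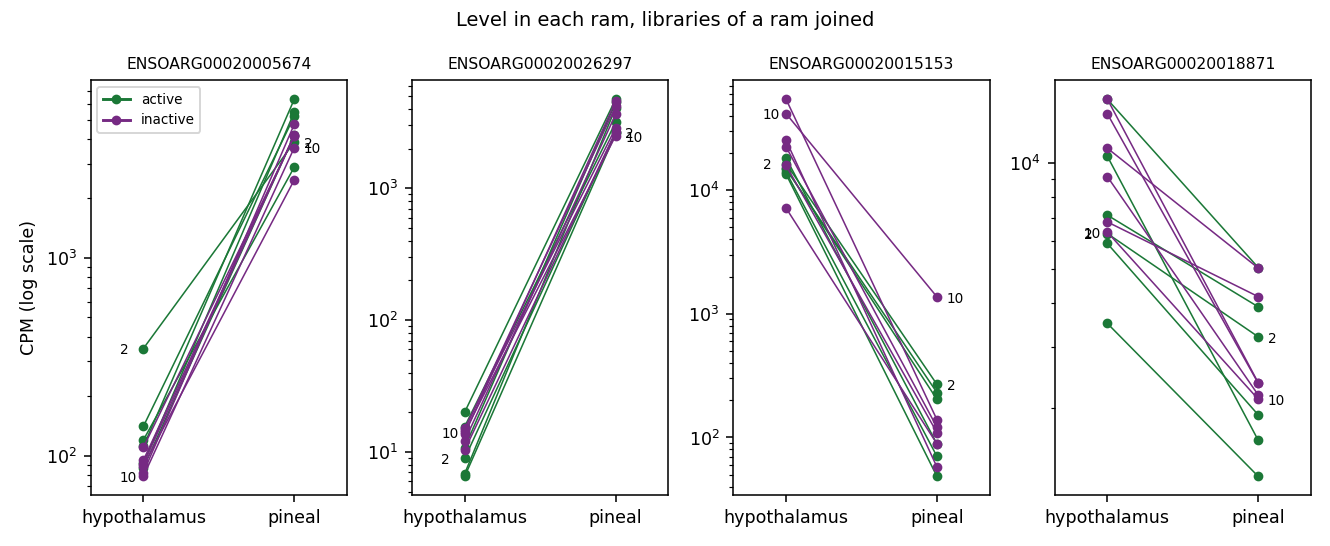
Level of the 4 IDs in each ram, in CPM on a log axis, with the hypothalamus and pineal libraries of a ram joined by a line (green, active; purple, inactive). Rams 2 and 10 are numbered; all lines of a panel slope the same way, as the choice of the IDs requires, and ram 10 has the highest pineal level of ENSOARG00020015153 at 1370 CPM.

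The direction of a difference was shared by every ram for about as many genes on either side. Scaling places the bulk of genes near no difference (median log2 difference 0.0048 over tested genes). The balance of the sides therefore depends on the scaling and is no separate result. On log2 CPM, 2734 genes (16.5%) were higher in the pineal gland in all 12 rams and 2949 (17.8%) were lower in all 12. Of these, 746 were at least 2-fold higher in each ram and 867 at least 2-fold lower in each ram. At 8-fold the numbers were 174 and 140, and at 32-fold 76 and 5. Ram 10 set the last of these counts: without that ram, 35 genes were at least 32-fold lower in all 11 others, and the 8-fold count rose from 140 to 240. The counts of genes higher in the pineal gland stayed close without ram 10, at 181 for 8-fold and 77 for 32-fold. For 1593 genes every pineal library stood above every hypothalamus library and for 1745 genes the reverse held. Without ram 10 these numbers were 1785 and 2046, without ram 4 they were 1769 and 1848, and without both rams 2014 and 2232. Leaving out any ram can only keep or raise such counts.

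Complete absence from one tissue was rare. Among tested genes that averaged 1 CPM or more in the pineal gland, 3 had no count in any of the 12 hypothalamus libraries. Among those that averaged 1 CPM or more in the hypothalamus, 1 had none in the pineal libraries.

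Profiles of the difference over all tested genes were alike from ram to ram, with ram 10 farthest from the rest. The correlation of a ram's log2 differences with those of another ram had a median of 0.78 to 0.88 in 11 rams and of 0.70 in ram 10, as a description over 16540 genes from shared libraries. Among the genes that differed at least 2-fold on average in the other 11 rams (4822 to 4954 genes), 93.8% to 98.8% had the same direction in the ram left aside, and 90.0% in ram 10. Genes that were at least 32-fold higher in the pineal gland in the other rams (153 to 161 genes) had a median log2 difference of 6.39 to 7.39 in the ram left aside. Ram 10 was inside this range, at 6.87. Genes at least 32-fold lower in the others (147 to 187 genes) had a median of -6.75 to -5.17 in 11 rams, and of -3.41 in ram 10 where the others had -5.90.

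A position between the tissue means was also read for each library, with 1 at the pineal mean and -1 at the hypothalamus mean of the other 11 rams. The pineal libraries stood at 0.94 to 1.12, except that of ram 10 at 0.65. The hypothalamus libraries stood at -1.06 to -0.90, except that of ram 4 at -0.80. In ram 10 the difference was thus of usual size for genes far higher in the pineal gland and smaller for genes far lower there. Both libraries of the ram enter this difference, so it does not give the level in the pineal library alone. By position, no library stood as far from its own tissue as the pineal library of ram 10. Whether this piece held cells of the other tissue was not tested. Without rams 4 and 10, 10710 genes were called (5399 higher, 5311 lower), against 10827 with all rams.

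**Figure D3:**
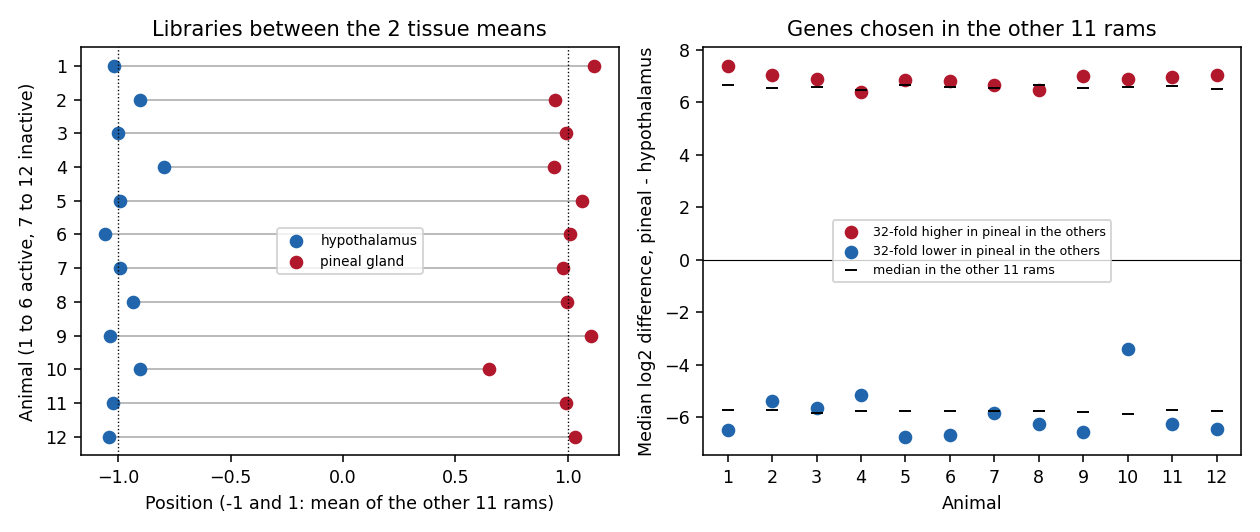
Left, position of each library on the line from the hypothalamus mean (-1) to the pineal mean (1) of the other 11 rams, by animal. Right, median log2 difference (pineal minus hypothalamus) in each ram of genes that were at least 32-fold higher (red) or lower (blue) in the other 11 rams, with their own median as a black dash; ram 10 stands apart on the blue side only, at -3.41.

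Hypothalamus libraries were dominated by a few transcripts to a greater extent. The 10 highest genes took 7.75 ± 1.53% of the counts of a hypothalamus library and 4.12 ± 0.385% of those of a pineal library (SD, n = 12 each). The pineal share was lower in 12 of 12 rams, with an exact two-sided sign-flip permutation p of 0.000488, the smallest that 12 pairs allow, and an adjusted p of 0.00244 over the 5 library values tested. The effective number of genes, the exponential of the Shannon entropy of the counts, was 5174 ± 265 for pineal and 4577 ± 522 for hypothalamus libraries (SD, n = 12 each). It was higher in the pineal gland in 10 rams (exact permutation p 0.00293, adjusted p 0.00732).

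Although its counts were spread less evenly, the hypothalamus had more genes above a low level. Genes with at least 1 CPM, here without scaling, numbered 14341 ± 159 per hypothalamus library and 14125 ± 123 per pineal library (SD, n = 12 each). Fewer were found in the pineal gland in 11 of 12 rams (exact permutation p 0.00635, adjusted p 0.0106). The exception was 1 ram, number 10, whose pineal library held 14403 such genes and its hypothalamus library 14148. Depth itself was 41.1 ± 14.1 for pineal and 31.1 ± 9.26 for hypothalamus libraries, in units of 1000000 counts (SD, n = 12 each), higher in the pineal gland in 7 rams (exact permutation p 0.115, adjusted p 0.115).

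**Figure D4:**
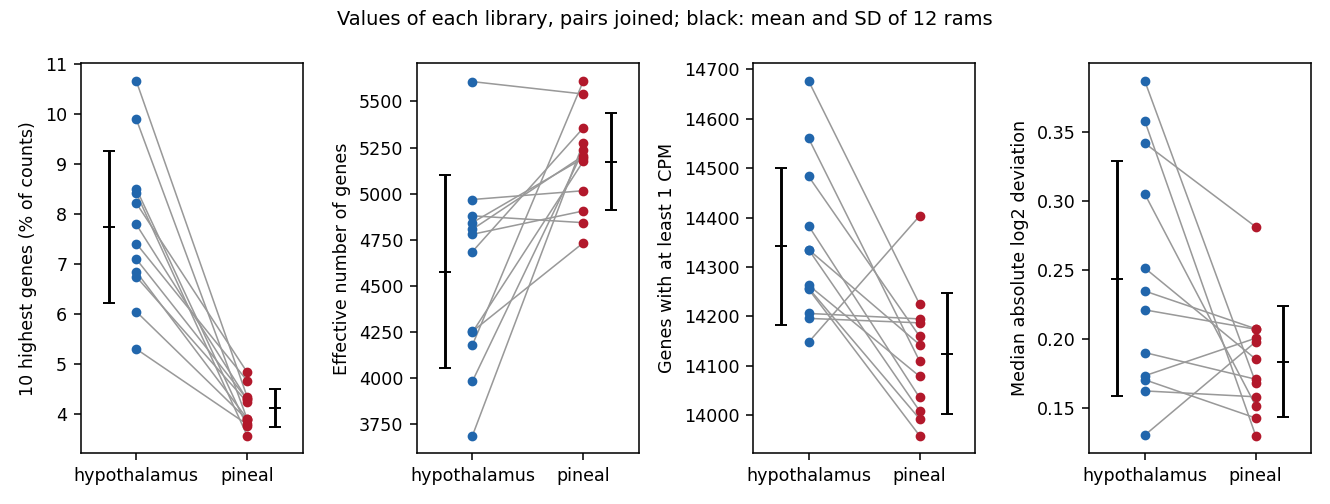
Values of the 12 hypothalamus (blue) and 12 pineal (red) libraries, with the pair of a ram joined by a line and the mean and SD over 12 rams in black. All 12 lines of the first panel fall from the hypothalamus to the pineal gland; the axes do not start at 0.

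The spread of levels between rams had a larger mean in hypothalamus libraries, a difference that did not pass the adjusted test. Spread was measured as the absolute deviation of log2 CPM from the median of the 6 libraries of the same tissue and state. Over the 9723 genes with at least 10 CPM in both tissues, the median of the mean deviation was 0.238 for the hypothalamus and 0.176 for the pineal gland, and 75.4% of these genes had the larger value in the hypothalamus, as a description over genes of the same libraries. Per library, the median deviation over tested genes was 0.244 ± 0.0855 for hypothalamus and 0.183 ± 0.0403 for pineal libraries (SD, n = 12 each), lower in the pineal gland in 10 of 12 rams. The exact permutation p of that difference was 0.0425, and the adjusted p of 0.0531 did not pass the threshold. It passed without ram 5 (adjusted p 0.0114 by the exact permutation test) or ram 11 (0.0366), and in no other set of 11 rams (0.0562 to 0.106).

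By limma on the deviations, 33 of 16540 genes (0.2%) differed in spread, 20 (0.121%) with more spread over hypothalamus libraries and 13 (0.0786%) over pineal libraries. The count was 14 without ram 10 or without ram 12, 11 with a prior count of 0.5, 129 without the filter on low counts and 22 without the block (15 and 7). On simulated counts this test recovered 0 of 200 genes with an 8-fold dispersion. At an unadjusted p under 0.05 there were 2480 genes (15.0%). Only 2 called genes had at least 10 CPM in both tissues. ENSOARG00020016954 ran from 24.8 to 125 CPM in the hypothalamus with a median of 51.0, and from 26.6 to 38.0 CPM in the pineal gland with a median of 28.0. ENSOARG00020017522 had nearly equal medians of 52.5 CPM (hypothalamus) and 53.5 CPM (pineal gland), but ran from 20.0 to 109 CPM in the first and from 44.9 to 59.6 in the second. Their mean deviations differed by -0.51 (SE 0.117) and -0.45 (SE 0.105) on the log2 scale, with adjusted p values of 0.0330 and 0.0370 by limma, or 0.0423 and 0.0537 without the block. Both lost the call in each of the 12 fits without 1 ram.

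Sexual activity is the main factor of the series, and within rams it can be tested on the difference between the tissues. The pineal-hypothalamus difference called 8723 genes (52.7%) in active rams (4272 higher, 25.8%, and 4451 lower, 26.9%) and 8697 genes (52.6%) in inactive rams (4238 higher, 25.6%, and 4459 lower, 27.0%). The 2 sets of rams share no library. Of these calls 7491 were common, which is 85.9% of the active and 86.1% of the inactive calls, and 0 of them had opposite directions. When the 6 pairs of each state were fitted alone, 6587 genes were called in both states, again 0 with opposite directions. The background for that overlap was 48.5% of 15706 genes called in inactive rams and 51.9% in active rams. These 6587 genes were 80.9% of the active and 86.5% of the inactive calls.

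No gene was called for a difference between the tissues that depended on state by edgeR's quasi-likelihood test (0 of 16540, 0%). An unadjusted p under 0.05 was reached by 361 genes (2.18%). On simulated counts this test recovered 25 of 100 genes changed 2-fold and 73 of 100 changed 4-fold. The lack of calls therefore does not show that no gene depended on state. For 10257 genes, 62.0% of the 16534 with an interval, the 95% interval of the state dependence excluded a 2-fold change in either direction. Of the genes with the lowest p, ENSOARG00020016892 averaged 209.5 ± 31.3 CPM in pineal and 209 ± 29.2 CPM in hypothalamus libraries of active rams, and 170.0 ± 29.4 and 336 ± 99.8 CPM in inactive rams (SD, n = 6 each). Its inactive hypothalamus levels of 441, 218, 311, 472, 305 and 266 CPM in rams 7 to 12 exceeded all active ones, which reached 252 CPM, except in ram 8. ENSOARG00020012548 had a pattern of the same kind, with 28.0 ± 14.1 CPM in the active and 61.4 ± 27.5 in the inactive hypothalamus, and 24.9 ± 6.92 and 26.3 ± 3.23 CPM in the pineal gland. The state dependence (log2 difference in active minus inactive rams) was 0.95 (SE 0.225) and 1.07 (SE 0.254) for these IDs. In the other direction ENSOARG00020014105 had -1.87 (SE 0.478) and ENSOARG00020006589, a gene under 1 CPM in every library, had -2.50 (SE 0.605). The adjusted p was 1 for all 4 by edgeR's quasi-likelihood test, and 0.394 to 1 over the alternatives.

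DESeq2 called 1 gene for state dependence, ENSOARG00020018777. It averaged 17.4 ± 34.0 CPM in the active and 38.1 ± 70.8 in the inactive hypothalamus (SD, n = 6 each), had at most 0.0466 CPM in an active pineal library, and had no count in the inactive pineal libraries. Its fitted value therefore rests on libraries without a count, and its adjusted p was 1 by edgeR's quasi-likelihood test.

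Some genes differed between rams in the same way in both tissues. A test of the 12 ram terms, added after the data were seen, called 371 genes (2.24%) by edgeR's quasi-likelihood test. Of these, 232 were also called between the tissues, a share near the 65.5% of all tested genes. Over the 12 rams, the log2 levels in the pineal gland and the hypothalamus correlated at a median of 0.85 for the 371 genes and 0.16 for all tested genes, as a description that the test itself favours. The ram test does not require the tissues to agree, and the lowest correlation among the 371 genes was -0.43. Of the 371 genes, 265 spanned more than 2 log2 units over the rams in each tissue. A ram term also takes up state and anything else that the libraries of a ram share.

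Levels fell into steps for the 2 called genes of lowest p that had at least 10 CPM in both tissues. ENSOARG00020006104 had 2.31, 2.23 and 2.00 CPM in the pineal gland of rams 5, 9 and 10, and 3.30, 3.48 and 2.33 CPM in their hypothalamus. The other 9 rams had 28.3 to 74.3 CPM in the pineal gland and 49.0 to 118 CPM in the hypothalamus, with no level between the steps in either tissue. Among these 9, rams 3, 4, 6 and 7 had 28.3 to 37.2 CPM in the pineal gland and rams 1, 2, 8, 11 and 12 had 65.1 to 74.3 CPM, and the same rams made up the lower and the upper part in the hypothalamus, at 49.0 to 71.3 and 87.7 to 118 CPM. ENSOARG00020018391 had 4.83 to 8.37 CPM in the pineal gland of rams 1, 5, 7, 9 and 10 and 69.6 to 105 CPM in the other 7. In the hypothalamus the same 5 rams had 5.10 to 6.77 CPM and the other 7 had 77.0 to 103 CPM. Active and inactive rams stood on either step of both genes. The adjusted p of the ram terms was 2.41e-08 and 4.92e-08 by edgeR's quasi-likelihood test (n = 12 pairs), and the tissue difference was -0.60 (SE 0.0848) for ENSOARG00020006104 and 0.04 (SE 0.0958) for ENSOARG00020018391.

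Such steps were also looked for in the pineal libraries alone. With at least 10 CPM in both tissues, 9 genes had a gap of at least 2 log2 units between adjacent pineal libraries with 3 or more rams on each side. For 5 of the 9, ENSOARG00020006104 and ENSOARG00020018391 among them, the same rams stood above the same others in the hypothalamus without overlap. For the other 4 genes the rams overlapped in the hypothalamus.

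**Figure D5:**
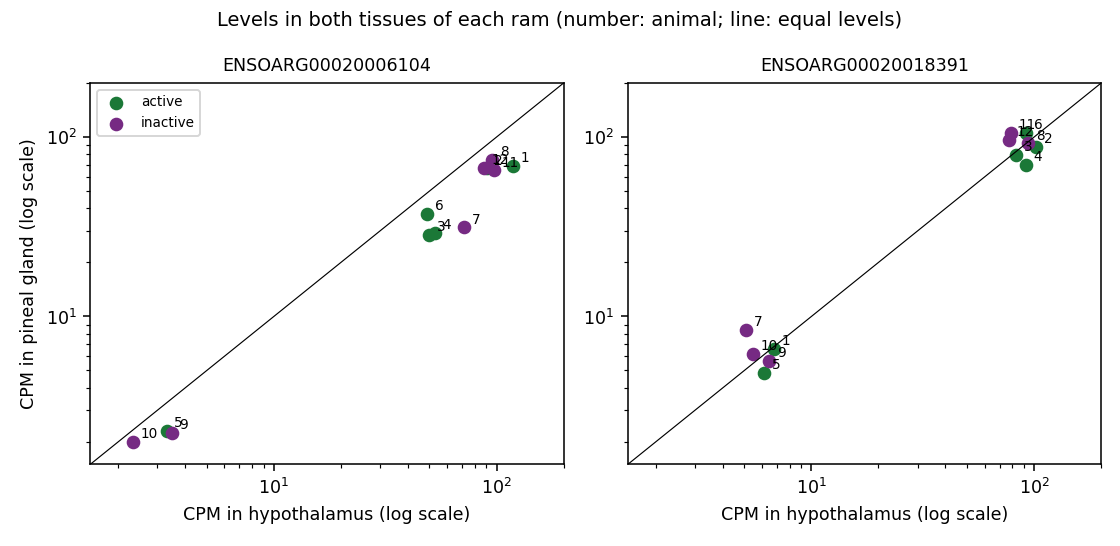
Level of 2 genes in the hypothalamus (x axis) and pineal gland (y axis) of each ram, in CPM on log axes; numbers give the animal, green active and purple inactive, and the line marks equal levels. The 3 and the 5 rams at the lower left are low in both tissues, and no ram lies between the groups.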

How the data were processed

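Per the labels' protocols, stranded messenger RNA libraries with unique molecular identifiers were read for 151 bases from both ends. The submitters' processing notes name the tools STAR 2.7.8a, HTSeq, FastQC and edgeR without their roles. No source used here states the genome build, annotation, strand setting or treatment of shared or duplicate reads, so near-identical or overlapping genes are uncertain. The authors deposited raw counts per gene, not normalised, and each column matched 1 labelled library.

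The tests ran in edgeR 4.0.16 (R 4.3.3): genes were kept by its filter (minimum count 10, 4 tissue-by-state groups), scaling by trimmed mean of M values, a robust quasi-likelihood fit with ram and tissue (11 residual degrees of freedom; 10 with tissue by state), and Benjamini-Hochberg adjustment. Differences per ram used log2 CPM with a prior count of 2. Spread was tested with limma 3.58.1, and library values by exact sign flips over 12 rams. SE is the absolute log2 difference over the square root of F.

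Each simulation changed 200 genes with a mean of at least 1 CPM and left all others equal between the tissues, with an assumed ram effect. Far fewer genes thus changed than were called in the data, so the rates hold for that setting only. On simulated counts, the tissue test recovered 81 of 100 genes changed 2-fold and 97 of 100 changed 4-fold, with 2 false calls among 16421 genes. The state-dependence test recovered 25 and 73 of 100, with 6 false calls among 16434 genes. The spread test recovered 0 of 200 genes with an 8-fold dispersion.

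The labels tie both libraries of a ram by animal number. Deviations from the group means correlated between them at -0.04 to 0.43 (median 0.20, over 0.1 in 8 of 12 rams). Among the 6 rams of the same state, the pineal library matched the hypothalamus library of its own number best in 8 of 12 rams. The exceptions were active ram 3 and inactive rams 10, 11 and 12. In rams 10, 11 and 12 the correlation with the own number was -0.04, 0.04 and -0.02. The median with the other rams of the state was 0.03, 0.13 and 0.06. Over the 9 genes with steps, 7 of 12 hypothalamus libraries matched the pineal library of their own number best. The ram was therefore a block by label. Named IDs follow a fixed rule (2 per direction and comparison at most): largest mean CPM difference with 1 direction in 12 rams for tissue, lowest p for state dependence, largest difference in deviation for spread. The ram test and its IDs were added later. The comparison, lists and tests were chosen with earlier results of these data known, and the gene lists could not be used without names. Alternatives were the fit without the block, another scaling (RLE), no filter, all 36 libraries, DESeq2 1.42.0, another prior count, thinned depth and each ram left out.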

Additional observations from a re-analysis of the deposited data

Results flagged for a closer look

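In groups of 6 rams of the same tissue and state, 76 sets of values were screened for a highest or lowest value whose gap to the next exceeded 0.625 of the range, and 6 were found. Chance alone marks about 1 in 20 such groups of normally distributed values. CPM was screened without logs and several sets come from the same libraries, so this rate is only a guide. Of the 6, 4 were values of inactive ram 10. The pineal library of ram 10 stood at 0.6482 between the tissue means, where the nearest inactive ram stood at 0.9782. The slope of its difference profile on the mean of the other rams was 0.7751, with the nearest inactive ram at 0.9668. In the same pineal library ENSOARG00020015153 had 1370 CPM, against 139.2 in the next inactive ram. In the hypothalamus of ram 10, ENSOARG00020012548 had 115.1 CPM, against 60.96 in the next inactive ram, and without ram 10 its state dependence was 0.88 on the log2 scale. The hypothalamus of active ram 2 had 347.8 CPM of ENSOARG00020005674, where the next active ram had 140.5. The pineal gland of active ram 6 had 37.97 CPM of ENSOARG00020016954, where the next active ram had 28.67.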

How the results depend on the processing

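Of 404 recomputed values, 364 were labelled the same and 0 reversed. For a named ID or a library value, the same meant no change of side of the threshold and no reversal. For a count of genes it meant only a size within a fixed ratio of the reported count. Another 7 counts moved further, and 2 library values gained a call. The other 31 were named IDs' values that lost a call, all of them for spread. The tissue count of 10827 was 10478 without the replicate block (10211 genes shared), 10363 to 11003 without 1 ram, and 10478 to 11261 over all other settings. The fit without the block changed no call of the 4 named tissue IDs, but gave 22 genes of unequal spread, 7 of them (13 with the block) with more spread in the pineal gland, and ended the spread call of ENSOARG00020017522 (adjusted p 0.0537 by limma). State dependence had 0 calls without any 1 ram and in the other edgeR fits, and 1 with DESeq2 (528 genes at an unadjusted p under 0.05). The 33 genes of unequal spread became 129 without the filter (22310 genes tested), 11 with a prior count of 0.5, 19 without rams 4 and 10, and 14 to 38 without 1 ram (14 without ram 10 or ram 12). The 371 genes that differed between rams became 957 with all 36 libraries, which include the pars tuberalis; 336 were shared. The difference in median deviation per library was -0.0721 to -0.0452 without 1 ram. The cause of these shifts was not tested. With libraries thinned to the lowest total, the other library values kept their calls. Depth limits genes under a geometric mean of 1 CPM, of which 57.0% were called.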
